A study of Homo sapiens with 6 samples.

Results

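The interferon-stimulated and nucleic acid sensing genes described here are 40 named genes, fixed as a list of symbols and matched to Ensembl gene identifiers, with older names accepted for RIGI (DDX58), CGAS (MB21D1) and STING1 (TMEM173). All 40 were found among the 57773 genes of the count table, each at 1 identifier. Their RNA was measured by ribosome-depleted RNA sequencing in HEK293, an established cell line derived from human embryonic kidney. There were 6 libraries in 3 groups of 2: EV, sgZNF146 and sgZNF507. Cells of all groups were transiently transfected with PX459, a plasmid carrying Cas9 and a puromycin resistance gene, and were put under puromycin for 36 h, so the EV controls share the plasmid, the nuclease and the selection. The EV plasmid carried no guide, sgZNF146 cells received 4 guides against ZNF146, and sgZNF507 cells received 4 guides against ZNF507. Selection started on the day after transfection and outgrowth brought the total to 2 weeks. The libraries come from populations of transfected cells and not from clones, so a lower RNA level in all cells and a lower share of cells carrying the RNA cannot be told apart.

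Cells detect foreign or misplaced nucleic acid with a small set of receptors. The helicases RIG-I, MDA5 and LGP2, encoded by RIGI, IFIH1 and DHX58, bind double-stranded RNA in the cytosol. RIG-I and MDA5 signal through the mitochondrial adaptor MAVS, whereas cGAS binds cytosolic DNA and signals through STING1. Both routes activate the kinase TBK1 and the transcription factors IRF3 and IRF7, which switch on interferon genes. Secreted interferon then acts through its receptor and a complex that contains STAT2 and IRF9 and binds the interferon-stimulated response element (ISRE), which raises a large group of antiviral genes. ZNF146 and ZNF507 bind LINE-1 sequences. LINE-1 RNA and cDNA are among the endogenous nucleic acids that these receptors are known to detect, which is the question these 40 genes bear on. The study measured LINE-1 RNA in the same experiment. With uniquely mapping reads most full-length elements went undetected, and none of those detected was differentially expressed in either disruption. The same held for regions downstream of intact elements. The study could not exclude rare or stochastic activation.

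The ISRE is the sequence that most of these genes are known to share, so matches to its core, which is GAAA, any 2 bases and GAAA again, were sought on both strands and counted in RefSeq promoters of GRCh38.p14, from 250 bases before to 50 bases after each annotated start. Promoters were at hand for 31 of the 40 genes, 40 promoters in all. An ISRE core was found for 19 of the 31 genes (61.3%) and in 23 of the 40 promoters (57.5%), against 1255 of 35116 promoters in the RefSeq table (3.57%). The sites below are shown because they belong to the genes whose values are described later. Each is 30 bases on the strand of the gene, 5′ to 3′, with the core match in capitals, and a match that reads TTTC, 2 bases, TTTC is the core on the opposite strand. Positions are those of the first base of the match, counted from the annotated start.
IFIT1, position -116, chr10:89392497-89392526, plus strand: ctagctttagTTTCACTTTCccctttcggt
IFIT5, position -45, chr10:89414513-89414542, plus strand: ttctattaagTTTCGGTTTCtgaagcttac
IFIT5, position -4, chr10:89414554-89414583, plus strand: atttcttaagTTTCAGTTTCtgagcgctcg
ISG15, position -107, chr1:1013380-1013409, plus strand: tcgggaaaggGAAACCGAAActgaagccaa
IFI6, position -156, chr1:27672329-27672358, minus strand: ggagagagggGAAAATGAAActctgcagag
IFI6, position -115, chr1:27672288-27672317, minus strand: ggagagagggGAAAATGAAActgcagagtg
IFITM3, position -35, chr11:320876-320905, minus strand: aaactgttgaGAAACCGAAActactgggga
IFI44, position -18, chr1:78649761-78649790, plus strand: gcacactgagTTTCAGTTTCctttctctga
EIF2AK2, position -6, chr2:37156967-37156996, minus strand: agtccaagggGAAAACGAAActgagaacca
ISG20, position -69, chr15:88638937-88638966, plus strand: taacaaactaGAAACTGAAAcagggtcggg
TLR3, position -4, chr4:186069142-186069171, plus strand: caagctttacTTTCACTTTCgagagtgccg

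IFIT5 held 3 cores, and IFI6 held 3, of which the first and second lie in a repeated stretch. The gamma-activated site, TTCNNNGAA, which is an element known from genes that interferon gamma raises and reads the same on both strands, was found for 9 of the 31 genes (29%), in 10 of the 40 promoters (25%) against 7.66% of all promoters. The genes with this site were TLR3, IRF1, IRF9, OAS1, IFITM1, BST2, MX1, IFI27 and IFI35. IRF1, IRF9, OAS1 and IFI35 held it without an ISRE core. The sites of IRF1 and IRF9 are given here because these transcription factor genes are followed below. Each is 29 bases on the strand of the gene with the match in capitals.
IRF1, position -124, chr5:132490879-132490907, minus strand: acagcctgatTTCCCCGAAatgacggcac
IRF9, position -63, chr14:24161192-24161220, plus strand: accacgtgatTTCTGGGAAaaggccctcc

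A match of letters is a description of the promoter, and the counts below come from gene bodies, not from these sites.

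**Figure D1:**
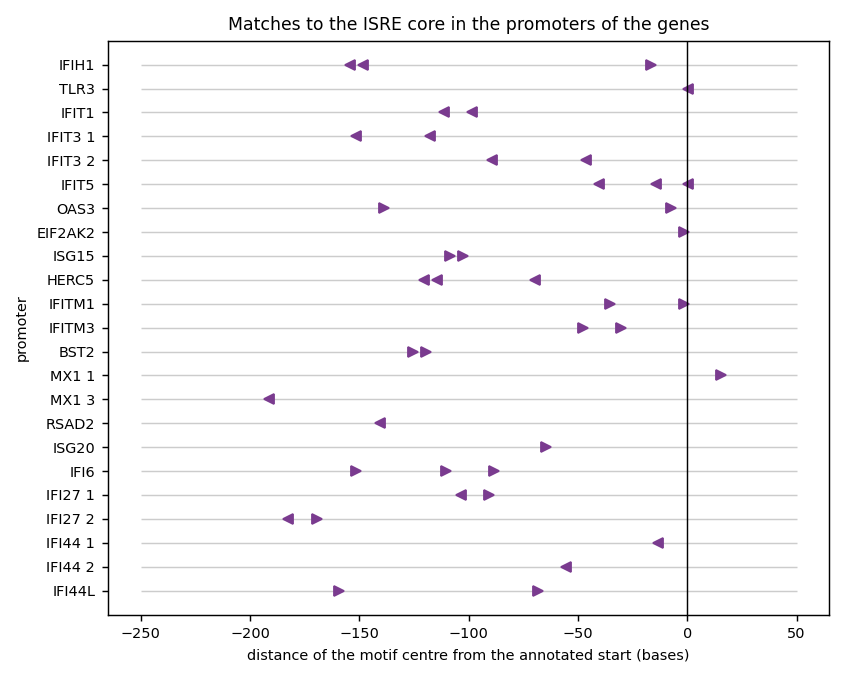
Positions of ISRE core matches, in bases from the annotated start (vertical line), in the 23 promoters of the genes that hold one, with a number after the symbol where several promoters of a gene hold a match. Triangles pointing right mark the core on the strand of the gene and those pointing left the opposite strand. Most matches lie before the start.

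Library totals were between 22724439 and 28524025 counts. ZNF507 RNA stood at 72.0 and 75.5 CPM (counts per 1000000 of the normalized library size) in EV, at 71.3 and 73.3 CPM in sgZNF146, and at 47.2 and 48.7 CPM in sgZNF507, a log2 fold change against EV of -0.62 (adjusted p = 0.00195, edgeR). ZNF146 RNA was 115 and 105 CPM in EV, 99.2 and 103 CPM in sgZNF146, and 88.4 and 101 CPM in sgZNF507, log2 fold changes against EV of -0.13 and -0.21 that did not pass the test. Small insertions and deletions need not lower an RNA level, so the RNA of ZNF146 does not check the sgZNF146 label. The study checked disruption in other ways. By western blot it found both proteins essentially undetectable in the targeted cells. In RNA reads it found frequent insertions and deletions at the guide sites that control cells lacked. The HEK293 markers PAX2, KRT8, KRT18, VIM, NEFM and INA were present, with a summed level between 1258 and 1418 CPM. The 10 immune cell markers summed to between 10.6 and 12.4 CPM. Of the 10, 4 had fewer than 10 counts in every library and 5 had enough counts to be tested. Among the low ones, PTPRC, the pan-leukocyte marker, had 1 to 5 counts and CD3E and TYROBP 0 or 1 count in each library. The 7 fibroblast markers summed to between 67.6 and 84.2 CPM, highest in both sgZNF507 libraries, and COL1A1 held 1495 to 1933 counts.

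The 40 genes were expressed at low to moderate levels in EV cells. Levels between genes were compared as RPKM, the CPM divided by the length in kb of the canonical transcript of GRCh37. In EV, 24 of the 40 genes stood at 1 RPKM or more and 16 below, of which 5 were below 0.1 RPKM. The median of the 36 genes with enough counts to be tested was 2.98 RPKM, against 7.22 RPKM over 14656 tested protein-coding genes, and 9 of the 40 stood above that protein-coding median. The summed level of the 40 genes was 587 and 591 CPM in EV, 611 and 616 CPM in sgZNF146, and 599 and 602 CPM in sgZNF507. The sums of the groups did not overlap, and MAVS, TRIM25 and EIF2AK2 made up between 52.5% and 53.9% of each. Without these 3 genes the sums were 270 and 277 CPM in EV, 284 and 292 CPM in sgZNF146, and 284 and 282 CPM in sgZNF507.

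**Figure D2:**
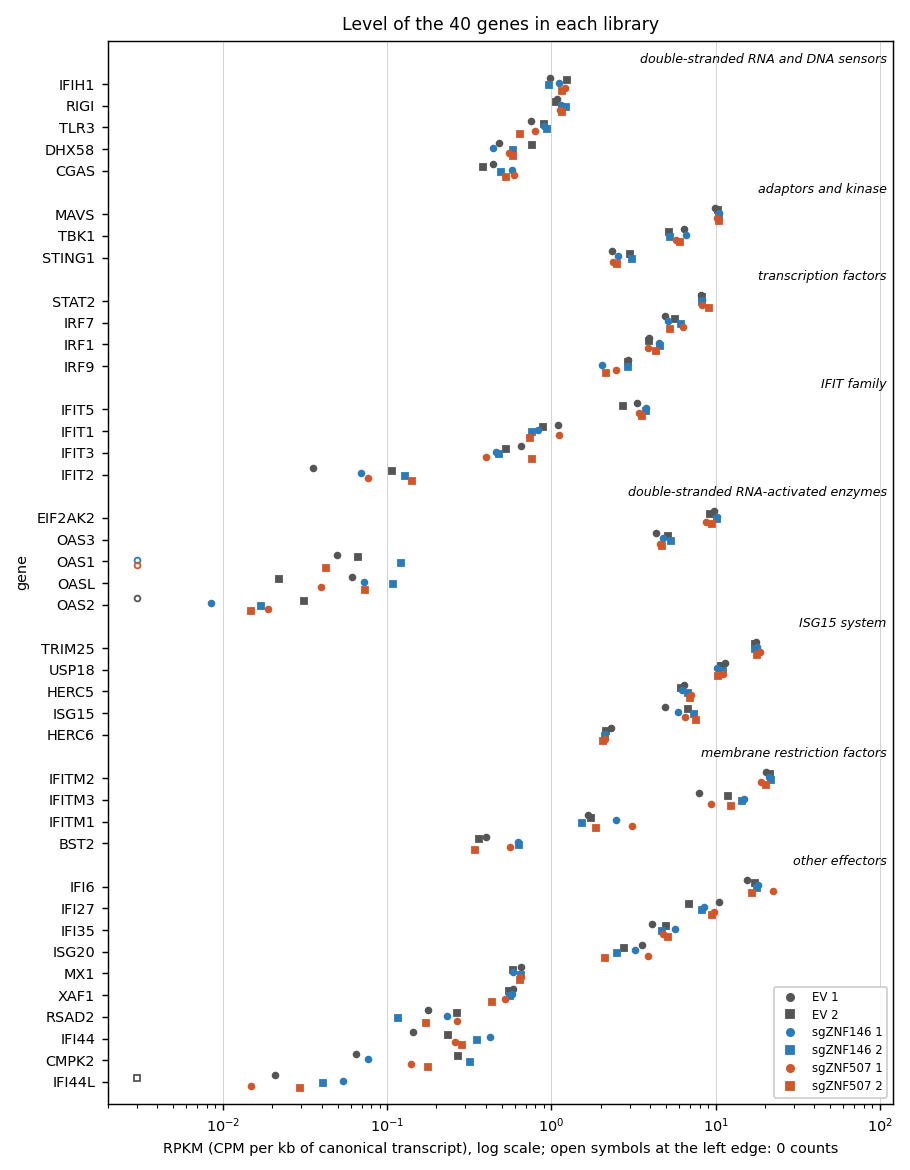
Level of each of the 40 genes in each of the 6 libraries, as RPKM on a log scale, grouped by role and ordered by the EV mean; circles are replicate 1 and squares replicate 2, colours are groups, and open symbols at the left edge are libraries with 0 counts. The levels run from 0.01 RPKM (IFI44L) to 20.8 RPKM (IFITM2) in EV, and for most genes the 3 groups lie together.

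The sensors were all transcribed, at low level. In EV, IFIH1 stood at 1.11 ± 0.20 RPKM (SD, n = 2), RIGI at 1.08 ± 0.01, the endosomal double-stranded RNA receptor TLR3 at 0.831 ± 0.11, DHX58 at 0.624 ± 0.20 and CGAS at 0.412 ± 0.039 RPKM. The components downstream of them were higher. MAVS stood at 10.2 ± 0.29 RPKM, TBK1 at 5.78 ± 0.85 and STING1 at 2.68 ± 0.46 RPKM. The transcription factor genes STAT2, IRF7, IRF1 and IRF9 had 8.24, 5.33, 3.94 and 2.94 RPKM in EV.

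The effector genes spread more widely. In the IFIT family, whose proteins bind viral RNA, IFIT5 stood at 3.03 RPKM in EV, IFIT1 at 0.997, IFIT3 at 0.593 and IFIT2 at 0.071 RPKM. Of the enzymes that double-stranded RNA activates, the translation-blocking kinase PKR (EIF2AK2) stood at 9.56 RPKM and the oligoadenylate synthetase OAS3 at 4.71 RPKM. OAS1, OAS2 and OASL were close to the counting limit. OAS1 had 2 and 3 counts in EV, 0 and 5 in sgZNF146, and 0 and 2 in sgZNF507. OAS2 had 0 and 4, 1 and 2, and 2 and 2 counts in the same order, and OASL had 5 and 2, 6 and 9, and 3 and 7. These 3 genes and IFI44L were too low to be tested.

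Genes of the ISG15 system, in which a ubiquitin-like protein is joined to other proteins, were among the higher ones. In EV, the ubiquitin ligase TRIM25 stood at 17.6 RPKM, USP18, which removes ISG15 and dampens the interferon receptor, at 11.1, the ISG15 ligase HERC5 at 6.28, ISG15 itself at 5.87 and HERC6 at 2.23 RPKM. Among the membrane proteins that restrict virus entry or release, IFITM2 stood at 20.8 RPKM, IFITM3 at 9.93, IFITM1 at 1.71 and tetherin (BST2) at 0.381 RPKM. IFI6, at 16.5 RPKM, and IFI27, at 8.65 RPKM, led the remaining effectors. IFI35 followed at 4.52 RPKM and the exonuclease gene ISG20 at 3.16 RPKM. The dynamin-like GTPase MX1 stood at 0.619, XAF1 at 0.569, viperin (RSAD2) at 0.221, IFI44 at 0.190, the nucleotide kinase CMPK2 at 0.167 and IFI44L at 0.010 RPKM.

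Several of these genes share sequence or position with others in the table, and reads in such stretches could be lost or split. Of the 50-base stretches of the canonical transcript, 92.8% were shared with another gene of the table for IRF9 (ENSG00000259529, on the same strand), 26.4% for USP18 (with USP41), 21.9% for IFI6 (with LINC02574), 20.8% for IFITM3, 15.8% for IFITM1 and 10% for IFITM2. RSAD2 and CMPK2 overlap on opposite strands, as IFIT2 and IFIT3 do with LIPA. Opposite-strand overlaps were also annotated for CGAS (with DDX43), EIF2AK2 (with GPATCH11), TRIM25 (with DGKE), MX1 (with TMPRSS2) and IRF1 (with IRF1-AS1). The same held for OAS1, ISG15, IFITM1, IFITM2 and IFITM3 with other genes of the table. TRIM25 overlaps C17orf67 on the same strand. The library kit keeps strand, but the strand setting of the counting is not given in the sources used here, so values of these genes are uncertain to that extent.

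None of the 36 tested genes passed the adjusted threshold of 0.05 in sgZNF507 against EV. This comparison asks whether disruption of ZNF507 moved the interferon and sensing genes. Of the 22010 genes tested, 40 were called (0.182%). At an unadjusted p under 0.05 there were 0 of the 36 genes, against 3.39% of all genes tested, and the 4 DESeq2-based alternatives also gave 0 at the adjusted threshold and 0 at the unadjusted one. The log2 fold changes of the 36 genes ran from -0.34 (IRF9) to 0.62 (IFIT2), with a median of 0.06, and the median over all genes tested was -0.003. Both sgZNF507 libraries were above both EV libraries for 7 genes (19.4%, against 14% of all genes tested) and below both for 3 genes (8.33%, against 15.3%). The 7 were CGAS, HERC5, IFIT5, IFITM1, IFI44, TRIM25 and RIGI, and the 3 were IRF9, XAF1 and HERC6.

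CGAS, the cytosolic DNA sensor, had the smallest p. It had 35 and 34 counts in EV, 47 and 40 in sgZNF146, and 44 and 49 in sgZNF507, and EV was the lowest group without overlap. The log2 fold change in sgZNF507 was 0.45 (SE 0.25, edgeR adjusted p = 1.00), with a 95% interval from -0.09 to 0.99. IFI6, a small mitochondrial and endoplasmic reticulum protein, had 13.4 ± 1.1 CPM in EV and 15.9 ± 3.3 CPM in sgZNF507 (SD, n = 2). There were 313 and 391 counts for EV, and 421 and 394 for sgZNF507, and the groups overlapped once scaled by depth. The log2 fold change of IFI6 was 0.25 (SE 0.14, edgeR adjusted p = 1.00), 0.02 without sgZNF507 replicate 1 and 0.46 without sgZNF507 replicate 2.

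IRF9 had 119 and 132 counts in EV, 84 and 120 in sgZNF146, and 93 and 102 in sgZNF507. Both sgZNF507 libraries were below both EV libraries, at a log2 fold change of -0.34 (SE 0.20, edgeR adjusted p = 1.00). This is the gene that shares most of its transcript with another. For HERC5 the EV libraries gave 562 and 594 counts and the sgZNF507 libraries 573 and 707, at a log2 fold change of 0.16 (SE 0.09, edgeR adjusted p = 1.00), with the sgZNF507 libraries higher after scaling.

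In sgZNF146 against EV, again 0 of the 36 genes passed the adjusted threshold, where 0 of 22010 genes (0%) were called. At an unadjusted p under 0.05 there were 3 genes of the 36 (8.33%), all higher in sgZNF146, against 2.43% of all genes tested. DESeq2 on the 6 libraries gave 0 at the adjusted threshold and 1 at the unadjusted one. The log2 fold changes ran from -0.35 (RSAD2) to 1.01 (IFI44), with a median of 0.06 against -0.001 over all genes tested. Both sgZNF146 libraries were above both EV libraries for 10 genes (27.8%, against 14% of all genes tested) and below both for 4 genes (11.1%, against 14.6%). The 10 were IFITM3, IFIT5, IFI44, IRF1, BST2, CGAS, EIF2AK2, IFI6, RIGI and MAVS, and the 4 were IFIT1, IRF9, IFIT3 and HERC6. Both disruption groups were set against the same EV libraries, so a low or high EV value enters both comparisons.

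IFITM3, which blocks fusion of virus with endosomes, had the smallest p. It had 121 and 201 counts in EV, 231 and 222 in sgZNF146, and 133 and 221 in sgZNF507. After scaling, both sgZNF146 libraries were the highest, and EV replicate 1 and sgZNF507 replicate 1 the lowest. The log2 fold change in sgZNF146 was 0.56 (SE 0.19, edgeR unadjusted p = 0.0119, adjusted p = 1.00), with a 95% interval from 0.15 to 0.97. It was 0.30 without EV replicate 1 and 0.88 without EV replicate 2, and was not called in either case. The other IFITM genes had smaller changes in sgZNF146, with log2 fold changes of 0.24 for IFITM1 and 0.04 for IFITM2.

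IFIT5 binds RNA with a 5′ phosphate. It had 334 and 303 counts in EV, 385 and 382 in sgZNF146, and 316 and 416 in sgZNF507, and after scaling to depth both EV libraries were below the other 4. The mean was 12.2 ± 1.7 CPM in EV, 15.2 ± 0.009 CPM in sgZNF146 and 14.0 ± 0.46 CPM in sgZNF507 (SD, n = 2). The log2 fold change in sgZNF146 was 0.32 (SE 0.12, edgeR adjusted p = 1.00). The 3 other IFIT genes had log2 fold changes in sgZNF146 of -0.32 for IFIT1, -0.32 for IFIT3 and 0.44 for IFIT2, with none past the test.

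IFI44 had 6 and 11 counts in EV, 18 and 15 in sgZNF146, and 10 and 14 in sgZNF507. The log2 fold change of IFI44 in sgZNF146 was 1.01 (SE 0.45, edgeR adjusted p = 1.00), with a 95% interval from 0.04 to 1.97. Its untested neighbour IFI44L had 3 and 0 counts in EV, 8 and 6 in sgZNF146, and 2 and 5 in sgZNF507. IRF1, a transcription factor induced by interferon gamma, gave 347 and 389 counts for EV against 409 and 411 for sgZNF146, which after scaling were the higher group, at a log2 fold change of 0.21 (SE 0.11, edgeR adjusted p = 1.00).

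**Figure D3:**
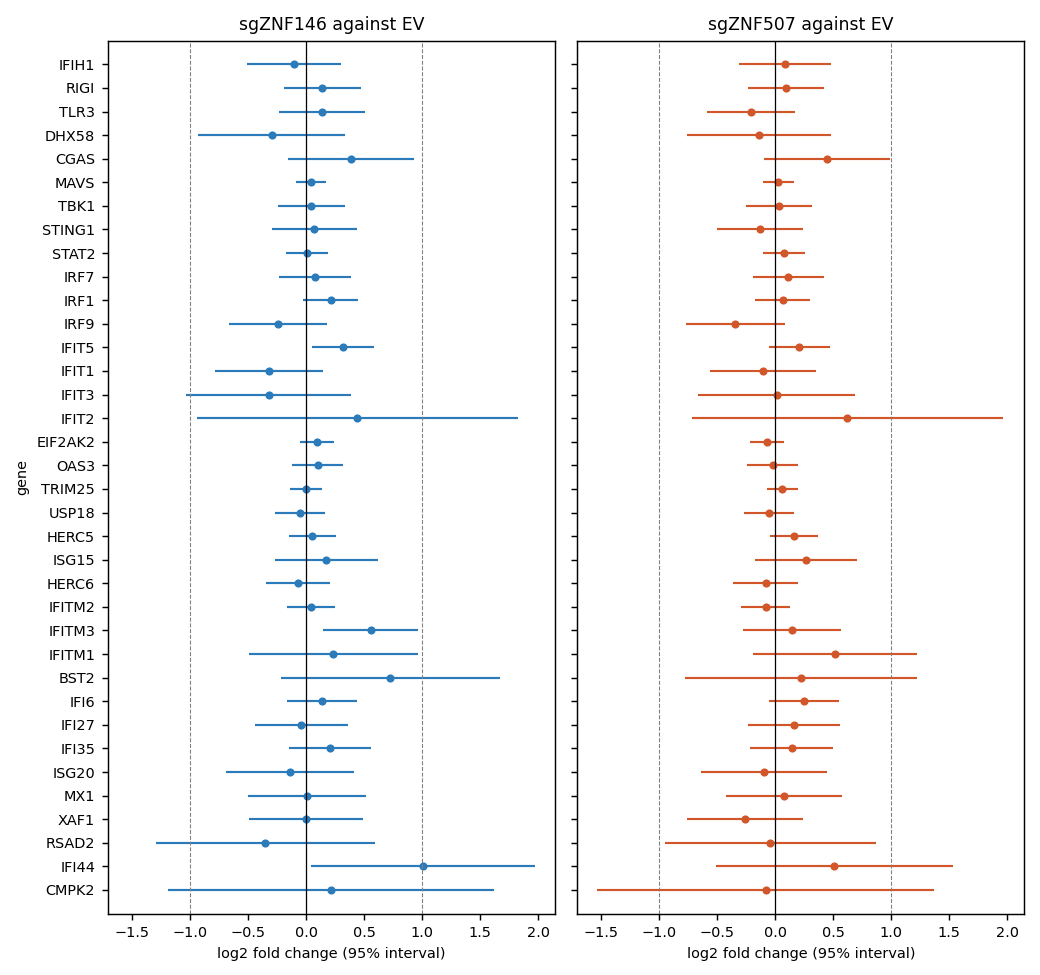
Log2 fold changes of the 36 tested genes with 95% intervals in sgZNF146 against EV (left) and sgZNF507 against EV (right), ordered by role; dashed lines mark a 2-fold change. In sgZNF146 the intervals of IFITM3, IFIT5 and IFI44 lie above 0, in sgZNF507 every interval includes 0, and no gene passed the adjusted threshold in either.

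The libraries with disrupted ZNF507 were also set directly against those with disrupted ZNF146, which tests whether the 2 disruptions differ. Here 0 of the 36 genes passed the adjusted threshold, against 38 of 22010 genes (0.173%), and 2 (5.56%) had an unadjusted p under 0.05, against 4.03% of all genes tested. DESeq2 on the 6 libraries gave 0 and 0. The median log2 fold change was -0.006, and -0.004 over all genes tested. Both sgZNF507 libraries were above both sgZNF146 libraries for 4 genes (11.1%, against 15.5%) and below both for 12 genes (33.3%, against 16.5%).

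EIF2AK2 had 2446 and 2556 counts in EV, 2589 and 2553 in sgZNF146, and 1999 and 2733 in sgZNF507. After scaling, its mean was 95.4 ± 4.1 CPM in EV, 102 ± 0.38 CPM in sgZNF146 and 90.5 ± 5.4 CPM in sgZNF507 (SD, n = 2), so EV and sgZNF507 overlapped and sgZNF146 was above both. The log2 fold change in sgZNF507 against sgZNF146 was -0.17 (SE 0.07, edgeR adjusted p = 1.00). IFITM3 differed by -0.41 (SE 0.19), TLR3 by -0.35 (SE 0.17) and IRF1 by -0.15 (SE 0.11) on the same log2 scale, each with an edgeR adjusted p of 1.00. TLR3 had 113 and 151 counts in EV, 137 and 142 in sgZNF146, and 111 and 113 in sgZNF507, so both sgZNF507 libraries were lowest against sgZNF146 while EV overlapped with sgZNF507.

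With sgZNF146 and sgZNF507 pooled against EV, 0 of the 36 genes and 3 of 22010 genes (0.0136%) were called. At an unadjusted p under 0.05 there was 1 gene of the 36, IFIT5 (2.78%, against 2.59% of all genes tested), and DESeq2 on the 6 libraries gave 0 and 0. IFIT5 had a log2 fold change of 0.26 (SE 0.11, edgeR adjusted p = 1.00), 0.42 without EV replicate 1 and 0.12 without EV replicate 2. The next 3 genes by p were IFITM3 at 0.35 (SE 0.17), CGAS at 0.42 (SE 0.22) and IFI44 at 0.76 (SE 0.40), each with an edgeR adjusted p of 1.00. The median over the 36 genes was 0.04, and -0.004 over all genes tested.

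**Figure D4:**
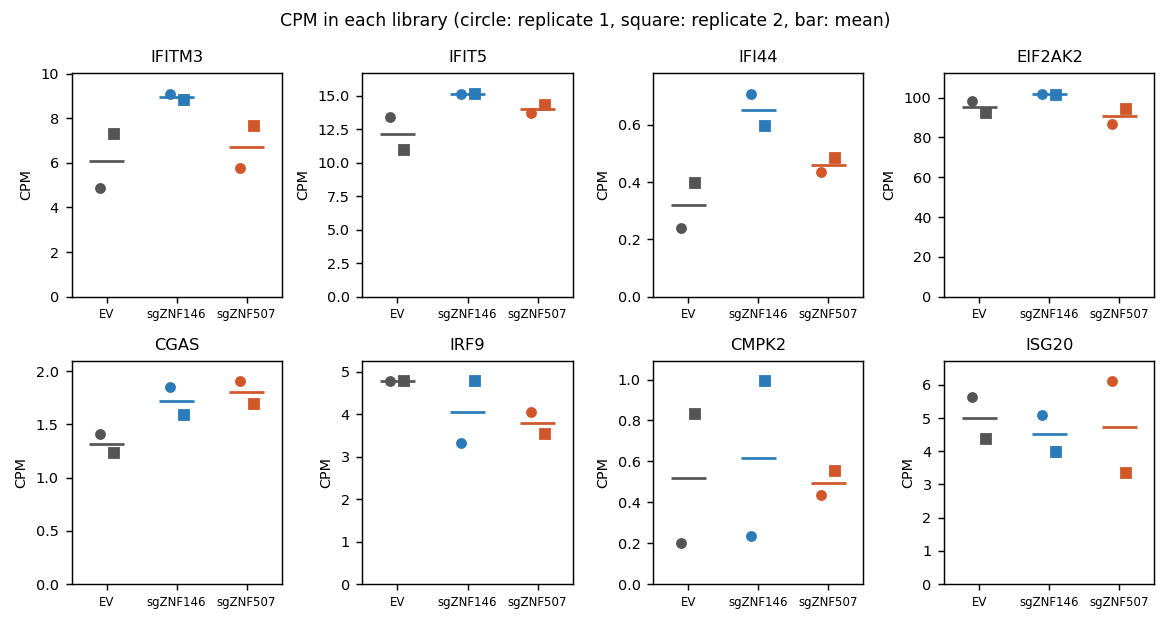
CPM in each of the 6 libraries for 8 of the named genes, from an axis starting at 0; circles are replicate 1, squares replicate 2 and bars the mean of 2. EV libraries are lowest for IFIT5, IFI44 and CGAS, IFITM3 is lowest in EV replicate 1 and sgZNF507 replicate 1, and in each group CMPK2 is higher and ISG20 lower in replicate 2.

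A p that misses the threshold does not show equal levels, so the intervals were read for the size of change they leave room for. In sgZNF507 against EV, 31 of the 36 genes had a 95% interval that stayed within a 2-fold change in either direction and 22 within 1.5-fold. In sgZNF146 against EV the counts were 30 and 22. A rise of 2-fold or more was inside the interval for 5 genes in sgZNF507 (IFITM1, IFI44, IFIT2, BST2 and CMPK2) and for 4 genes in sgZNF146 (IFI44, IFIT2, BST2 and CMPK2). Precision followed the counts: 3 of the 40 genes, MAVS, TRIM25 and EIF2AK2, had 1000 or more counts in every library, and 15 had a mean under 50.

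For several of the genes that interferon is known to raise strongly in many cell types, the interval ended below 2-fold. IFIT2 and IFI44 were not among these, with upper ends of 3.54-fold and 3.93-fold in sgZNF146 and 3.90-fold and 2.89-fold in sgZNF507. For ISG15, with 78 and 120 counts in EV, 95 and 119 in sgZNF146, and 96 and 140 in sgZNF507, the interval of the fold change ended at 1.54-fold in sgZNF146 and at 1.63-fold in sgZNF507. For IFIT1, with 118 and 106, 90 and 83, and 111 and 93 counts, it ended at 1.11-fold in sgZNF146 and 1.28-fold in sgZNF507. The groups overlapped for ISG15 in both comparisons, while both sgZNF146 libraries were below EV for IFIT1. For MX1, with 41 to 52 counts in every library, the interval ended at 1.43-fold in sgZNF146 and 1.49-fold in sgZNF507. IFI27 had 186 and 136 counts in EV, 154 and 149 in sgZNF146, and 161 and 197 in sgZNF507, and its interval ended at 1.28-fold and 1.47-fold. RSAD2, with 10 to 25 counts, was less well fixed, with upper ends of 1.51-fold and 1.82-fold. For the adaptor MAVS the interval in sgZNF507 ran from 0.93-fold to 1.12-fold.

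**Figure D5:**
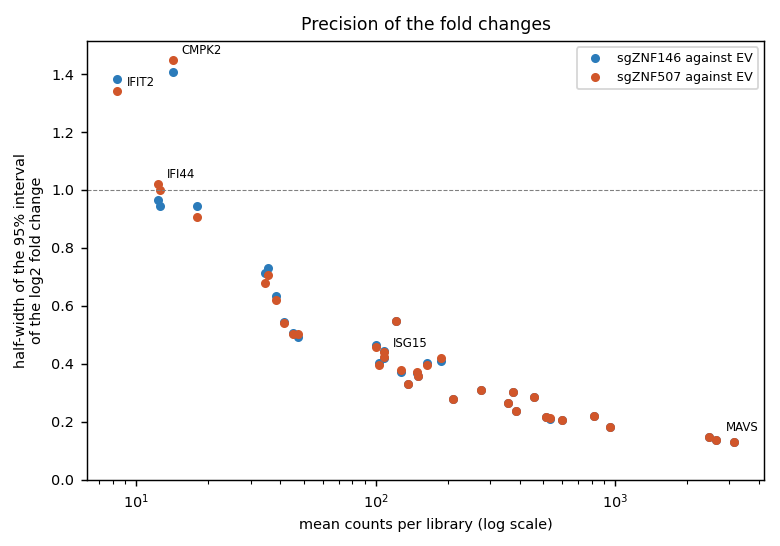
Half-width of the 95% interval of the log2 fold change against the mean counts per library (log scale) for the 36 tested genes, in sgZNF146 against EV and sgZNF507 against EV; the dashed line is a half-width of 1. The half-width falls with counts, and CMPK2, IFIT2 and IFI44 lie near or above the line while MAVS is lowest.

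Interferon genes themselves were near or at 0. Of the 11 interferon genes listed, IFNB1, IFNA1, IFNA5, IFNA8, IFNK, IFNG, IFNL2 and IFNL3 had 0 counts in all 6 libraries, which allows up to 3 counts, or 0.132 CPM in the library with the fewest counts. IFNA2 had 1 count in EV replicate 1, IFNL1 had 1 count in sgZNF507 replicate 2, and IFNE had 0 to 4 counts per library. RNA of several genes that act in the response was present, while their proteins and a response to added interferon were not measured here. In EV the kinases TYK2 and JAK1 stood at 33.8 and 20.3 RPKM, and the type I receptor genes IFNAR1 and IFNAR2 at 7.26 and 4.51 RPKM. IRF3, the factor TBK1 phosphorylates, stood at 30.8 RPKM.

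Other genes of the pathway were followed in lists of receptors and JAK-STAT signaling, signaling from sensors, other nucleic acid sensors, negative regulators and nucleic acid turnover, class I antigen presentation, other interferon-stimulated genes and the NF-kB response, with the interferon genes. Over these 8 lists, 142 genes were in the table and 116 were tested. In each of the 4 comparisons 0 of the 116 were called by edgeR, and 3, 5, 3 and 3 had an unadjusted p under 0.05, in sgZNF507 against EV (2.59%, against 3.39% of all genes tested), sgZNF146 against EV (4.31%, against 2.43%), sgZNF507 against sgZNF146 (2.59%, against 4.03%) and both together against EV (2.59%, against 2.59%). The medians were 0.012, 0.014, -0.006 and 0.014 on the log2 scale. The editing enzyme ADAR, which marks self RNA, stood at 73.8 RPKM in EV with log2 fold changes of 0.0002 in sgZNF507 and -0.006 in sgZNF146. B2M, the light chain of class I molecules, had log2 fold changes of -0.01 (SE 0.07) and 0.03 (SE 0.07), neither past the test. The DNA sensors AIM2, with 4 to 11 counts, and TLR9, with 0 or 1 count, were near the counting limit, and TLR8 had 0 counts in all 6 libraries.

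The libraries numbered 2 were also compared with those numbered 1, a comparison of 3 against 3 libraries chosen after the data were seen. In an edgeR fit with group and replicate number as terms, 1596 of 22010 genes (7.25%) were called, and 4300 (19.5%) had an unadjusted p under 0.05. Of the 36 genes, 2 were called (5.56%) and 10 (27.8%) had an unadjusted p under 0.05. The median absolute log2 fold change of the 36 genes was 0.11 here, and 0.11 over all genes tested. It was 0.14 in sgZNF146 against EV (0.085 over all genes tested) and 0.11 in sgZNF507 against EV (0.095 over all genes tested). Those comparisons use 2 against 2 libraries, so their sizes are not directly comparable with the value for replicate numbers. The replicates are biological duplicates with the disruption repeated, and whether a number marks a shared day is not given in the sources used here. CMPK2 had 5 and 23 counts in EV, 6 and 25 in sgZNF146, and 10 and 16 in sgZNF507, higher in number 2 in each group, with a log2 fold change of 1.44 (SE 0.40, edgeR adjusted p = 0.0185). ISG20 had 140 and 121, 129 and 100, and 141 and 97 counts, lower in number 2 in each group, with a log2 fold change of -0.53 (SE 0.13, edgeR adjusted p = 0.00875). With DESeq2 and the same terms, 0 of the genes were called, the adjusted p of ISG20 was 0.245, 2 genes had an unadjusted p under 0.05, and CMPK2 was given no adjusted p. The next genes by p were IFITM3, at 0.28 (SE 0.11, edgeR adjusted p = 0.13), and ISG15, at 0.34 (SE 0.14, edgeR adjusted p = 0.141). In the 8 lists, 8 of the 116 tested genes were called, where 7.25% of all genes tested were called. TYK2, DTX3L, RIPK1, DDX41, TREX1 and TANK were higher in number 2, and HLA-B and HLA-F lower. Of the 6 tested HEK293 markers, 2 were called, KRT8 and KRT18, both higher in number 2. Of the 5 tested immune cell markers, 1 was called, CD14, at 13 to 30 counts and lower in number 2. None of the 6 tested fibroblast markers was called.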

How the data were processed

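HEK293 RNA was sequenced in 6 paired-end libraries of 50 bp reads. The authors clipped reads with the Fastx Toolkit, removed ribosomal reads with Bowtie, mapped the rest to hg19 with TopHat2 and counted them per Ensembl gene with featureCounts, which gave the deposited raw counts, 1 column per library, not normalized or pooled. Reads carry no molecular identifiers, so PCR duplicates count as reads, and the limit of 3 counts covers counting error only. Groups and replicate numbers were taken from the labels. The replicates are biological duplicates for which, per the study, the disruption was also repeated. The edgeR p-values and 95% intervals rest on the spread between these libraries, drawn for each gene toward that of other genes. Of 12.5 degrees of freedom in the comparisons between groups, 9.51 came from other genes.

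Counts were tested with edgeR 4.0.16 (R 4.3.3): low genes were removed with filterByExpr given the 3 groups, and the rest were normalized by TMM and fitted with glmQLFit over all 6 libraries, and contrasts were tested with glmQLFTest, with Benjamini-Hochberg adjustment over 22010 genes and a threshold of 0.05. Standard errors came from the F statistic and are approximate. The script was tested on simulated data. Alternatives were DESeq2 1.42.0, other scalings and filters, a replicate block and leaving out each library. The annotation of GRCh37 matched 55538 of 57773 identifiers. Promoters are from RefSeq, GRCh38.p14, and no coordinates were converted. Named genes are all past the threshold and the 4 with the smallest p in each contrast. The 40 genes, the lists and their roles were chosen with earlier results of these data known, so no test over a list was made. IKBKE, IKBKG, CCL5 and NEFL are not used here. The result of 1 gene of the lists is not reported here.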

Additional observations from a re-analysis of the deposited data

How the results depend on the processing

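None of the 36 tested genes passed the threshold in the 4 comparisons between groups, under edgeR or any of 15 alternatives, including DESeq2, upper-quartile and DESeq2 scaling, no filter, the replicate block and leaving out each library. None of the 20 named fold changes reversed under the 15 alternatives, which gave 277 values of them in all. They were named for a small p in these same libraries, which the alternatives refit, so a kept sign is not independent evidence. The sizes of the named fold changes moved when 1 library was left out. IFI6 in sgZNF507 against EV ran from 0.02 to 0.46, and IFITM3 in sgZNF146 against EV from 0.30 to 0.88. With both groups against EV, IFITM3 ran from 0.10 to 0.67 and IFIT5 from 0.12 to 0.42. The median log2 fold change moved by more than the spread between replicates (SD 0.038) in a few refits: in sgZNF146 against EV, leaving out 1 library gave 0.013 to 0.085, lowest without EV replicate 1 (0.013) and without sgZNF146 replicate 2 (0.019); in sgZNF507 against sgZNF146 it gave -0.059 (without sgZNF507 replicate 1) to -0.0012; with both together against EV it gave 0.020 to 0.110, highest without EV replicate 2. In these comparisons without 1 library the lone library of its group is assumed to vary like the others.

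The sources used here do not say whether same-numbered libraries share a day or culture. Deviations from the group means of same-numbered libraries correlated at 0.138 (EV and sgZNF146), 0.176 (EV and sgZNF507) and 0.145 (sgZNF146 and sgZNF507) over 22010 genes. With the replicate block, no call among the 36 genes changed, while over all genes edgeR called 121 in sgZNF507 against EV, 33 in sgZNF146 against EV, 196 in sgZNF507 against sgZNF146 and 73 for both groups against EV, in place of 40, 0, 38 and 3, and the edgeR medians were 0.065 in sgZNF146 against EV and 0.041 for both groups against EV.

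The comparison of replicate numbers was less stable. In place of 2 genes, 1 was called with at least 10 counts in every library and 0 with DESeq2 and the replicate block. When 1 library was left out, the other library of its group was fitted by its own group term. Each such refit therefore took the whole group out of this comparison, and leaving out either library of a group is in effect the same refit. CMPK2 and ISG20 were never called at once in these refits. CMPK2 lost its call without either EV library or either sgZNF146 library (log2 fold change 1.12 to 1.18) and was removed by the filter of 10 counts. ISG20 lost its call with DESeq2 (adjusted p = 0.245) and without either sgZNF507 library (-0.36). IFITM3 gained a call without either sgZNF146 library (0.49), and TBK1 gained one without either sgZNF507 library. Depth limits IFIT2, IFI44, BST2 and CMPK2, and OAS1, OAS2, OASL and IFI44L were below it.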

Other observations

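Among the interferon-related genes outside the 40, 3 are described here and were chosen after their values were seen. They are not all the genes with an unadjusted p under 0.05, of which sgZNF146 against EV alone had 5. Changes went both ways. Log2 fold changes in the list of other interferon-stimulated genes ran from -0.99 to 0.62 in sgZNF146 and from -0.43 to 0.63 in sgZNF507. LGALS3BP, a secreted glycoprotein that interferon can raise, had 2302 and 2375 counts in EV, 2918 and 2881 in sgZNF146, and 2841 and 2906 in sgZNF507, and both EV libraries were the lowest after scaling. Its log2 fold change was 0.36 (SE 0.09) in sgZNF146, 0.32 (SE 0.09) in sgZNF507 and 0.34 (SE 0.08, edgeR adjusted p = 0.747) with both together. TNFAIP3, an inhibitor of NF-kB that NF-kB itself induces, had 137 and 158 counts in EV, 154 and 155 in sgZNF146, and 98 and 121 in sgZNF507, with a log2 fold change of -0.54 (SE 0.15, edgeR adjusted p = 0.662) in sgZNF507 against sgZNF146. SOCS1, a feedback inhibitor of JAK kinases, had 18 and 33 counts in EV, 53 and 31 in sgZNF146, and 37 and 46 in sgZNF507, with a log2 fold change of 0.75 (SE 0.29, edgeR adjusted p = 1.00) with both together. None of the 3 passed the adjusted threshold.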
